A study of Homo sapiens with 6 samples.

Results

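The zinc transporters and metallothioneins of the 83 cell line were compared between cells that overexpress ApoD and control cells. The members were all rows of the count table named as a zinc exporter (SLC30A), a zinc importer (SLC39A), a metallothionein (MT1, MT2A or MT3) or the zinc sensor MTF1. They were 29 of the 21676 gene symbols in the table: 7 exporters, 13 importers, 8 metallothioneins and MTF1. The submitters call the line a SACC cell, a name that usually stands for salivary adenoid cystic carcinoma. The groups were 3 libraries of 83 cells with overexpression of ApoD, a secreted lipocalin that carries small lipids, and 3 libraries of 83 cells labelled as control. The labels do not say how ApoD was introduced, what the controls carried, or whether the libraries came from separate cultures or clones. The p-values therefore measure the spread between these libraries only, which may be technical.

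Zinc is a structural and catalytic metal in a large share of cell proteins, and its free level in the cytosol is kept very low. Exporters of the SLC30A family move zinc out of the cytosol, to the outside or into vesicles and the Golgi, and importers of the SLC39A family move it into the cytosol. Metallothioneins are small cysteine-rich proteins that bind zinc, copper and cadmium. MTF1 is activated by zinc and binds metal response elements, short DNA motifs in the promoters of metallothionein genes and of SLC30A1.

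Metal response elements are known for the core TGCRCNC, so the promoters were searched for its spellings TGCACNC and TGCGCNC on both strands. The following stretches are the 250 bases before the annotated start of 3 members that are known MTF1 targets, read from RefSeq (GRCh38.p14) and shown because their RNA gave unlike results; capitals mark each core. The MT2A window is chr16:56608334-56608583 (plus strand), the MT1X window chr16:56682220-56682469 (plus strand) and the SLC30A1 window chr1:211579162-211579411 (minus strand).
MT2A: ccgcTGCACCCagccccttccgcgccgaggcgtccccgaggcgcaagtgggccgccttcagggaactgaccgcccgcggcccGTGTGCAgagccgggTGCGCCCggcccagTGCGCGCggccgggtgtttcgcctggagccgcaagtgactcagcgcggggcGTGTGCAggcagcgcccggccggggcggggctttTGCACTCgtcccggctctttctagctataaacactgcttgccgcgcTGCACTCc
MT1X: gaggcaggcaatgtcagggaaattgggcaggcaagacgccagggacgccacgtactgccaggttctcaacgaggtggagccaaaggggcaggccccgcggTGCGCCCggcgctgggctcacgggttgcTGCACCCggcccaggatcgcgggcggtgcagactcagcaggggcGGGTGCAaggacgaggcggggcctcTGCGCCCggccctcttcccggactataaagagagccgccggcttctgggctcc
SLC30A1: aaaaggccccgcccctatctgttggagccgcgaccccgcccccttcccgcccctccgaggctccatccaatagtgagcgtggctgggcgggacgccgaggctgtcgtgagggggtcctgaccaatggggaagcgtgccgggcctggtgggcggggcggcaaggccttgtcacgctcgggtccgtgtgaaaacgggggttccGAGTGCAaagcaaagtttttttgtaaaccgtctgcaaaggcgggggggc

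The MT2A window held 7 cores that did not overlap, the MT1X window 4 and the SLC30A1 window 1. Of the 35114 RefSeq windows of this length, 24.8% held at least 1 core, 1.05% at least 3 and 0.208% at least 4. Among the other metallothioneins with an entry, MT1B held 3 cores and MT1H held 8. Transporters and MTF1 had 27 windows, some with more than 1 annotated start: 10 held a core and none held more than 2. A match is a stretch of letters and not a measured binding site. The sequence table had an entry for 23 of the 29 members, not for MT1E, MT1F, MT1G, MT3, SLC39A4 or SLC39A14.

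The libraries held between 37542568 and 40416964 counts. APOD had 628, 528 and 625 counts with ApoD overexpression and 9, 8 and 2 counts in the controls, and its level was 99.4-fold higher (edgeR adjusted p = 4.53e-08). The first principal component of the 14629 tested genes held 73.3% of the variance and placed control replicate 1, at −36.9, nearer to the ApoD overexpression libraries (42.8 to 60.2) than the other controls (−61.0 and −59.7). Libraries of 1 group differed by a chi-square per degree of freedom of at least 11.6, so none was a copy of another. Epithelial markers summed to 3951 to 4463 CPM (counts in 1000000, after scaling by TMM, the trimmed mean of M-values) with ApoD overexpression and to 3432 to 4531 CPM in controls, with 7 of 8 markers at 10 CPM or more. The sum hides unlike directions. By mean KRT8, KRT18 and KRT7 were higher with ApoD overexpression, and EPCAM, CDH1, KRT19, KRT5 and KRT17 were lower. For KRT8, KRT18 and KRT7 control replicate 1 lay within the CPM range of the ApoD overexpression libraries. CDH1 had a mean of 31.2 CPM with ApoD overexpression and 76.1 CPM in controls. Myoepithelial and basal markers summed to 105 to 121 CPM with ApoD overexpression and to 292 to 444 CPM in controls. By mean TP63, KRT14, KRT15, ACTA2 and MYLK were lower with ApoD overexpression. CNN1, which was rare, was higher, with means of 0.231 CPM with ApoD overexpression and 0.131 CPM in controls. The fibroblast markers summed to 9.85 to 13.8 CPM with ApoD overexpression and 26.9 to 32.6 CPM in controls, most of it COL1A1 (means of 11.3 and 26.2 CPM). The endothelial markers summed to 1.35 to 2.30 CPM with ApoD overexpression and 8.01 to 13.3 CPM in controls. Immune markers summed to 36.7 to 38.7 CPM with ApoD overexpression and 15.7 to 32.8 CPM in controls, nearly all of it CD68, while PTPRC had 0 counts in each ApoD overexpression library and 1, 12 and 0 counts in the controls. In bulk RNA a smaller number of cells of a type and less RNA per cell cannot be told apart, and the part of these marker differences in the results was not tested.

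In this comparison 48.8% of the 14629 tested genes passed the threshold, an edgeR adjusted p of 0.05, with 24.2% higher and 24.6% lower with ApoD overexpression. Of the 29 members 24 had enough counts to be tested. Among them 11 were higher, 5 were lower and 8 did not pass. Members that rose did so by modest amounts, with log2 fold changes of 0.27 to 0.76, whereas those that fell spanned −0.90 to −3.82. The median log2 fold change was 0.27 over 7 tested exporters, 0.18 over 12 tested importers and −0.58 over 4 tested metallothioneins, against −0.02 over all tested genes. Scaling by library totals in place of TMM moved the median of all genes by −0.12, the share of higher calls among all calls to 36.8% from 49.6%, and the number of members called higher to 7.

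**Figure D1:**
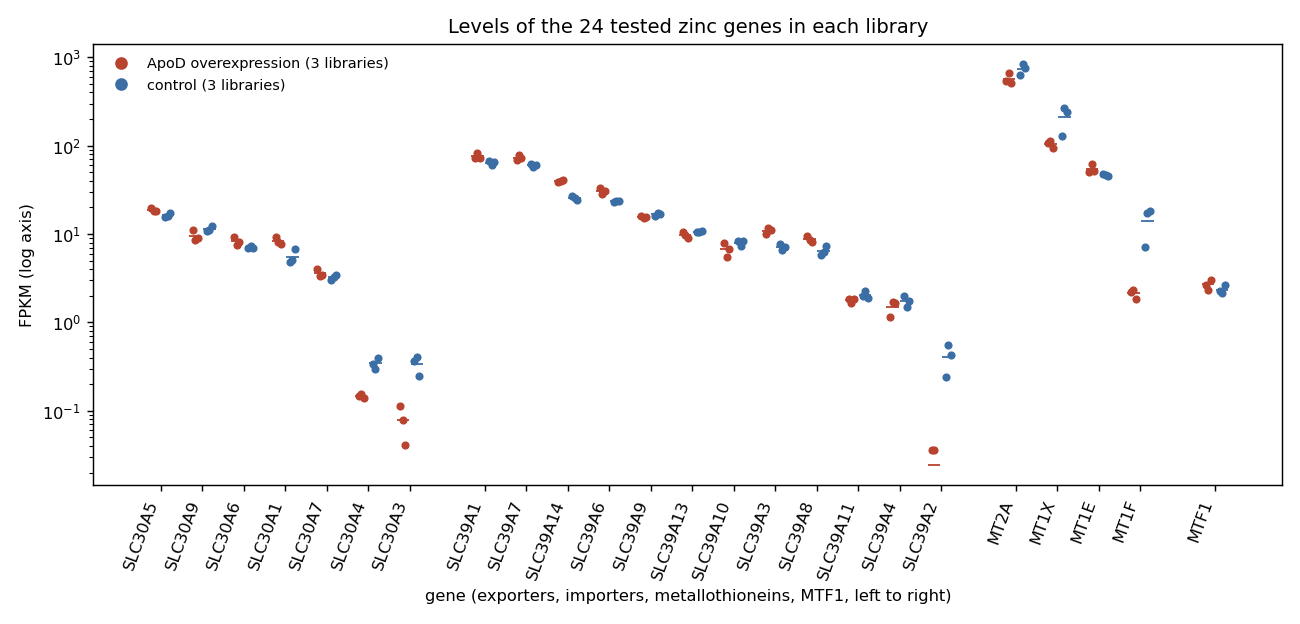
FPKM (log axis) of the 24 tested zinc genes in each library, with ApoD overexpression in red left of control in blue; short lines are group means and a library listed at 0 (SLC39A2, ApoD overexpression replicate 2) is not drawn. MT2A is the most abundant in both groups, at means of 573 FPKM with ApoD overexpression and 744 FPKM in controls, and the separation between colours is widest for SLC39A2, MT1F and SLC30A3.

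Levels between genes can be compared per length, as FPKM (fragments scaled for gene length and library total). The source of the gene lengths is not given. Places of single metallothioneins are uncertain, since reads can be assigned to the wrong member of that family. The order given here is that of the 24 tested members. MT2A was the most abundant member, at 573 ± 83.8 FPKM with ApoD overexpression and 744 ± 108 FPKM in controls (SD, n = 3), followed in both groups by MT1X, SLC39A1, SLC39A7, MT1E, SLC39A14 and SLC39A6. SLC39A1 and SLC39A7 were neighbours in that order whose ranges overlapped with ApoD overexpression (72.4 to 82.5 and 69.3 to 77.6 FPKM). The largest move in the order was that of MT1F, which stood at place 19 with ApoD overexpression and at place 10 in controls. At the bottom of these 24 stood SLC30A4, SLC30A3 and SLC39A2, each under 1 FPKM in every library.

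Among the zinc exporters 4 of 7 rose, 2 fell and 1 did not pass. SLC30A1, the plasma membrane exporter that lowers cytosolic zinc, rose most. It had 56.1, 50.7 and 47.6 CPM with ApoD overexpression and 27.5, 29.3 and 37.2 CPM in controls. Every ApoD overexpression library lay above every control, and the level was 1.64-fold higher (log2 fold change 0.72 ± 0.12 SE, n = 3; edgeR adjusted p = 0.000533). Libraries of the groups were separated with ApoD overexpression on top for 29.0% of all tested genes and at the bottom for 29.7%. The exporters of the early secretory pathway rose by less. SLC30A5, which pairs with SLC30A6 to load zinc into secretory enzymes, had 94.0, 89.7 and 90.0 CPM with ApoD overexpression and 72.0, 72.9 and 75.5 CPM in controls. Its log2 fold change was 0.31 ± 0.08 (SE; edgeR adjusted p = 0.00843). SLC30A6 had 68.8, 58.1 and 62.4 CPM with ApoD overexpression and 49.6, 51.1 and 48.0 CPM in controls, again without overlap. Its log2 fold change was 0.35 ± 0.10 (SE; edgeR adjusted p = 0.00930). SLC30A7, a Golgi exporter, had 40.8, 34.9 and 34.8 CPM with ApoD overexpression and 28.7, 30.7 and 31.9 CPM in controls, and it passed narrowly (log2 fold change 0.27 ± 0.11 SE; edgeR adjusted p = 0.0479).

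SLC30A7 lost its call without ApoD overexpression replicate 1 or 3 (edgeR adjusted p = 0.147 and 0.0595) or without control replicate 1 or 2 (0.101 and 0.112). With library totals SLC30A5, SLC30A6 and SLC30A7 kept positive log2 fold changes of 0.20, 0.23 and 0.16 but did not pass (edgeR adjusted p = 0.0706, 0.0650 and 0.263), and with the abundance trend removed they did not pass either, so SLC30A1 was then the 1 exporter called higher.

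The vesicular exporters, both rare in these cells, fell. SLC30A4, which loads zinc into vesicles and is known for zinc secretion into milk in the mouse, had 53, 52 and 50 counts with ApoD overexpression and 121, 107 and 139 counts in controls. The groups were separated, at 1.37 ± 0.08 CPM with ApoD overexpression and 2.99 ± 0.37 CPM in controls (SD, n = 3), and the log2 fold change was −1.12 ± 0.26 (SE; edgeR adjusted p = 0.00328). With the abundance trend removed it was −0.66 and did not pass (edgeR adjusted p = 0.0545). SLC30A3, the exporter of synaptic vesicles, had 17, 11 and 6 counts with ApoD overexpression and 53, 60 and 36 counts in controls. It was 4.02-fold lower (log2 fold change −2.01 ± 0.49 SE, n = 3; edgeR adjusted p = 0.00508), and with the abundance trend removed the log2 fold change was −1.36 (edgeR adjusted p = 0.0376). SLC30A9, a transporter that exports zinc from mitochondria, had 78.1, 60.7 and 63.4 CPM with ApoD overexpression and 72.3, 72.0 and 78.1 CPM in controls. Those ranges overlapped, and its log2 fold change of −0.14 had a 95% interval of −0.37 to 0.10.

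**Figure D2:**
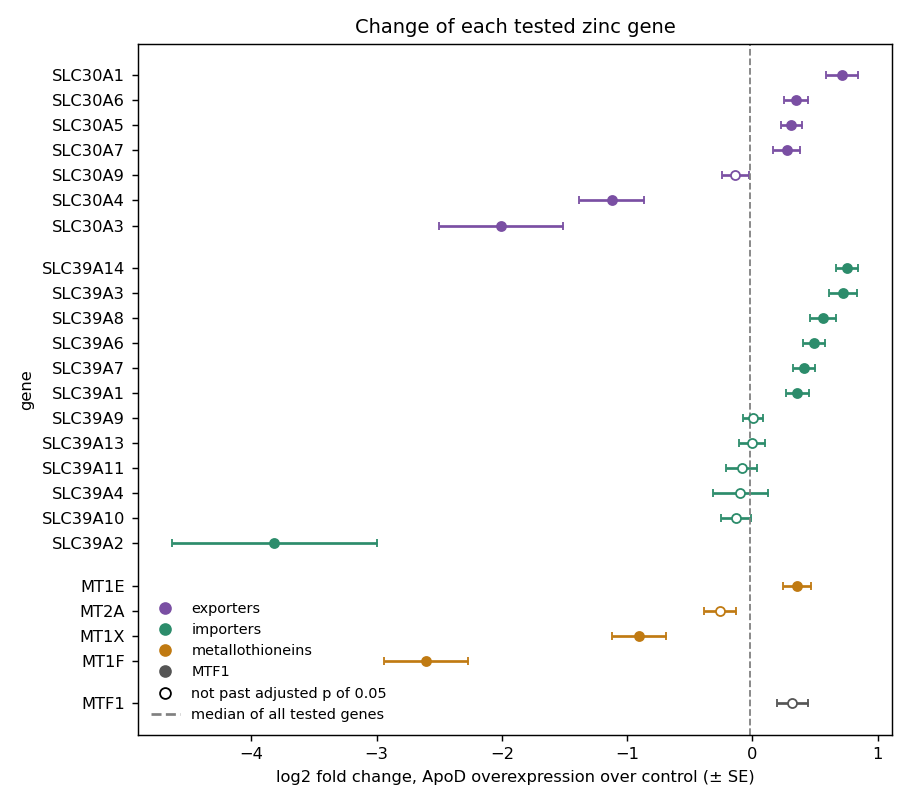
Log2 fold change (ApoD overexpression over control) of each tested zinc gene, with bars of 1 SE; filled points passed an edgeR adjusted p of 0.05, and the dashed line is the median of all tested genes, −0.02. The 11 higher members lie between 0.27 and 0.76, while SLC39A2, MT1F and SLC30A3 lie at −3.82, −2.60 and −2.01.

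Among the 12 tested zinc importers 6 rose, 1 fell and 5 did not pass. SLC39A14, which imports zinc and also manganese and iron not bound to transferrin, showed the largest rise. It had 254, 264 and 269 CPM with ApoD overexpression and 166, 156 and 143 CPM in controls. The 2 groups lay far apart, with a 1.69-fold higher level (log2 fold change 0.76 ± 0.09 SE, n = 3; edgeR adjusted p = 3.09e-05). SLC39A8, its closest relative in metals carried, had 70.2, 65.1 and 61.3 CPM with ApoD overexpression and 40.4, 43.6 and 49.1 CPM in controls. It was 1.48-fold higher, again without overlap (edgeR adjusted p = 0.000716). SLC39A3, a plasma membrane importer, had 40.5, 48.3 and 45.2 CPM with ApoD overexpression and 29.7, 24.9 and 26.6 CPM in controls. Its level was 1.65-fold higher (log2 fold change 0.72 ± 0.11 SE; edgeR adjusted p = 0.000219). SLC39A6, a plasma membrane importer first known as the estrogen-regulated gene LIV-1, had 124, 108 and 117 CPM with ApoD overexpression and 82.5, 83.4 and 81.3 CPM in controls. Its controls differed little among themselves, and it was 1.41-fold higher (edgeR adjusted p = 0.000608).

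The abundant importers SLC39A7 and SLC39A1 rose by smaller ratios. SLC39A7 releases zinc from the endoplasmic reticulum, and had 172, 198 and 184 CPM with ApoD overexpression and 145, 134 and 137 CPM in controls. Its log2 fold change was 0.41 ± 0.09 (SE, n = 3; edgeR adjusted p = 0.00219). SLC39A1, a widely expressed plasma membrane importer, had 227, 264 and 228 CPM with ApoD overexpression and 197, 177 and 187 CPM in controls. The groups did not overlap, and the log2 fold change was 0.36 ± 0.09 (SE; edgeR adjusted p = 0.00659). With the abundance trend removed SLC39A1 changed by 0.16 and did not pass (edgeR adjusted p = 0.140). In the GENCODE annotation 8.58% of the exon bases of SLC39A7 are shared with RXRB and 8.26% of those of SLC39A1 with CREB3L4, each on the opposite strand. The strand setting of the counting is not given in the sources used here, so reads of these partners cannot be told apart.

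The single importer that fell was SLC39A2, a relative of SLC39A1 that keratinocytes are known to induce when they differentiate. It had 2, 0 and 2 counts with ApoD overexpression and 13, 30 and 23 counts in controls. The ratio of control to ApoD overexpression was 15.2, with a 95% interval from counting error alone of 5.67 to 57.5 (log2 fold change −3.82 ± 0.82 SE; edgeR adjusted p = 0.00214). With the abundance trend removed its log2 fold change was −2.94 (edgeR adjusted p = 0.0108). SLC39A5, a basolateral importer of gut and pancreas, was too rare to be tested in the main fit. It had 0 counts in each ApoD overexpression library and 0, 5 and 6 counts in controls, so control replicate 1 held none of them. The control level was 3.38-fold that of a floor of 3 counts over the ApoD overexpression group, a ratio without counting error. Without the filter all 13 importers were tested, and SLC39A2 was the only 1 that edgeR called lower.

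The remaining importers differed little. SLC39A9, a Golgi and plasma membrane importer, had 94.9, 91.6 and 94.0 CPM with ApoD overexpression and 91.4, 96.9 and 91.1 CPM in controls. Its 95% interval for the log2 fold change ran from −0.18 to 0.19, and 5.23% of its exon bases are shared with ERH on the opposite strand. SLC39A13, which sits in the early secretory pathway and is mutated in a connective tissue disorder, had 33.1, 31.5 and 28.5 CPM with ApoD overexpression and 31.1, 30.9 and 31.2 CPM in controls. That interval was also narrow, from −0.22 to 0.22. SLC39A10, a partner of SLC39A6 at the plasma membrane, had 90.5, 64.1 and 77.4 CPM with ApoD overexpression and 88.9, 78.0 and 87.3 CPM in controls, with an interval of −0.39 to 0.13. Unlike SLC39A6, it did not pass; the difference between these genes was not tested. SLC39A11 had 16.3, 15.1 and 16.2 CPM with ApoD overexpression and 16.8, 18.6 and 15.3 CPM in controls. SLC39A4, the intestinal importer mutated in acrodermatitis enteropathica, was low, with 129, 178 and 185 counts with ApoD overexpression and 217, 164 and 192 counts in controls. Its interval was the widest of the 5, from −0.58 to 0.38.

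**Figure D3:**
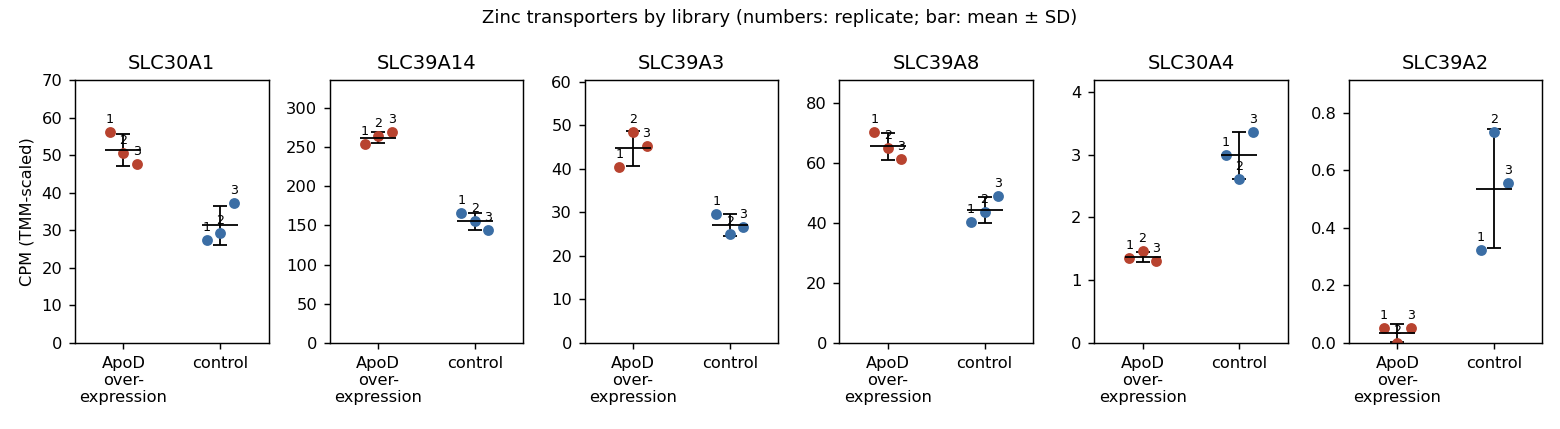
CPM of 6 zinc transporters in each library, ApoD overexpression left of control, with the replicate number at each point and the mean ± SD over 3 libraries as bars; each panel has its own axis from 0. SLC30A1, SLC39A14, SLC39A3 and SLC39A8 are higher in every ApoD overexpression library, and SLC30A4 and SLC39A2 are lower in every one.

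Metallothioneins did not move together. Of the 4 tested, MT1F and MT1X fell, MT1E rose and MT2A did not pass. MT2A, the main metallothionein of these cells, had 223, 283 and 213 CPM with ApoD overexpression and 246, 325 and 288 CPM in controls. ApoD overexpression replicate 2 lay above control replicate 1, and the log2 fold change of −0.26 had a 95% interval of −0.53 to 0.02 (edgeR adjusted p = 0.111). The result for MT2A depended on the libraries and the scaling. It passed as lower without ApoD overexpression replicate 2 (−0.40, edgeR adjusted p = 0.0172), without control replicate 1 (−0.34, 0.0292), with library totals (−0.38, 0.0302) and after removal of the abundance trend (−0.46, 0.0112). It also passed in limma on filtered log2(FPKM + 1) and log2(FPKM + 0.1) (−0.38 in each, limma adjusted p = 0.0384 and 0.0389). MT2A thus gained a call under 6 of 16 alternatives. It lay further from the threshold without ApoD overexpression replicate 1 (−0.18, edgeR adjusted p = 0.353) or 3 (−0.16, 0.418) and without control replicate 2 (−0.15, 0.417) or 3 (−0.24, 0.239).

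MT1X had 45.0, 47.7 and 39.6 CPM with ApoD overexpression and 50.6, 105 and 92.2 CPM in controls. The groups did not overlap, but control replicate 1 lay close to the ApoD overexpression libraries. The level was 1.87-fold lower (log2 fold change −0.90 ± 0.21 SE, n = 3; edgeR adjusted p = 0.00528). Without control replicate 1 the log2 fold change was −1.15, and without ApoD overexpression replicate 3 it was −0.82 and did not pass (edgeR adjusted p = 0.0655). In MT1F, at a lower level, control replicate 1 was again the lowest control, with 42, 41 and 34 counts with ApoD overexpression and 131, 318 and 327 counts in controls. It was 6.08-fold lower (log2 fold change −2.60 ± 0.34 SE; edgeR adjusted p = 6.66e-05), and with any 1 library left out it passed at −2.39 to −2.91.

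MT1E differed in the other direction. It had 38.5, 48.9 and 40.5 CPM with ApoD overexpression and 35.1, 33.3 and 31.5 CPM in controls. Its log2 fold change of 0.36 ± 0.11 (SE, n = 3) passed (edgeR adjusted p = 0.0192), but the call was lost without ApoD overexpression replicate 2 (0.24, edgeR adjusted p = 0.0692), control replicate 2 (0.36, 0.0620) or control replicate 3 (0.34, 0.0581), with library totals (0.24, 0.0837) and after removal of the abundance trend (0.28, 0.0657). The call of MT1E was lost under 9 of 16 alternatives, among them each fit on FPKM (limma adjusted p = 0.0585 to 0.111). The other metallothioneins were nearly silent. MT1B had 3, 0 and 0 counts with ApoD overexpression and 1, 4 and 9 counts in controls, a ratio of control to ApoD overexpression of 4.31 with a 95% counting interval of 1.20 to 23.4. That interval leaves out the spread between libraries, and the groups overlapped. Without the filter all 8 metallothioneins were tested, and edgeR called 2 lower, MT1F and MT1X, but not MT1B. MT1G, MT1H and MT3 had no count with ApoD overexpression and 1 count each in controls.

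**Figure D4:**
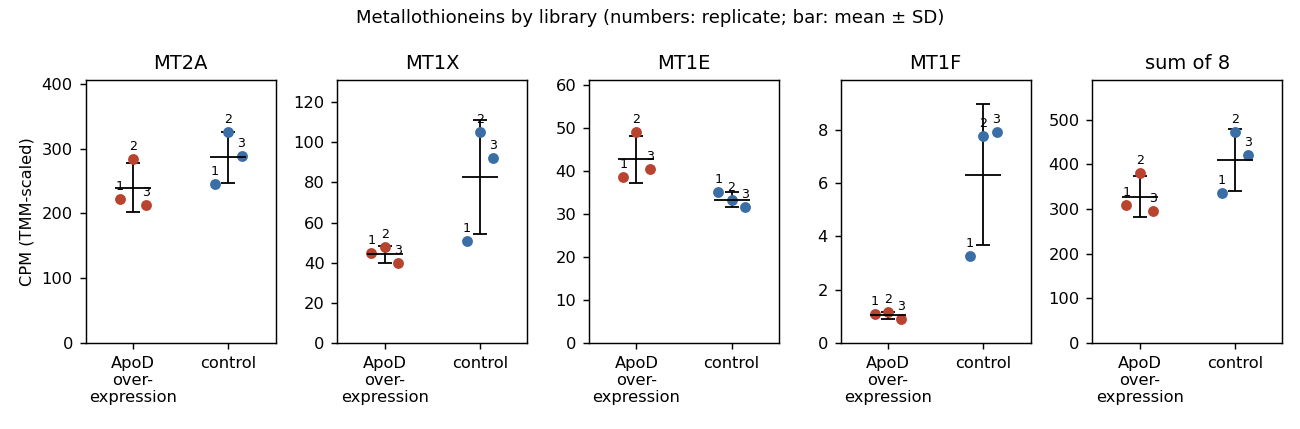
CPM of the 4 tested metallothioneins and of the sum of all 8 in each library, ApoD overexpression left of control, with the replicate number at each point and the mean ± SD over 3 libraries as bars; each panel has its own axis from 0. Control replicate 1 is the lowest control for MT2A, MT1X, MT1F and the sum, and the highest for MT1E.

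The metallothionein genes neighbour each other on chromosome 16 and, apart from MT3, are near copies. In GENCODE transcripts the coding sequences of MT1E, MT1F, MT1X and MT2A were 88.7% to 92.5% identical in pairs, and MT1X and MT2A transcripts shared an exact run of 63 bases. MT3 was 72.5% to 76.3% identical to the others. Reads can therefore be assigned to the wrong member, so each single value is uncertain and the sum over the 8 members was also taken. The sum was 308, 381 and 294 CPM with ApoD overexpression and 335, 471 and 420 CPM in controls. ApoD overexpression replicate 2 lay above control replicate 1, so the groups overlapped, at 328 ± 46.8 CPM with ApoD overexpression and 409 ± 68.9 CPM in controls (SD, n = 3). Within the sum MT2A took 73.1% ± 1.08 of the counts with ApoD overexpression and 70.3% ± 2.68 in controls. The share of MT1E was 13.0% ± 0.638 with ApoD overexpression and 8.34% ± 1.86 in controls. MT1X took 13.5% ± 1.06 with ApoD overexpression and 19.8% ± 4.04 in controls, and MT1F 0.347%, 0.303% and 0.302% with ApoD overexpression and 0.970%, 1.65% and 1.88% in controls. These shares do not depend on the scaling of the libraries.

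MTF1, the zinc sensor itself, had 24.4, 22.0 and 28.2 CPM with ApoD overexpression and 19.4, 18.4 and 21.9 CPM in controls. The groups just failed to overlap, and its log2 fold change was 0.32 ± 0.13 (SE, n = 3; edgeR adjusted p = 0.0517), which missed the threshold. It passed under 6 of 16 alternatives. These were without ApoD overexpression replicate 2 or control replicate 3 (0.39 and 0.41, edgeR adjusted p = 0.0292 and 0.0295) and by the DESeq2 Wald test (0.32, adjusted p = 0.0427). The call was also gained with the abundance trend removed (0.32, edgeR adjusted p = 0.0479), with DESeq2 size factors (0.32, 0.0439) and without the filter (0.34, 0.0308). Under the others MTF1 did not pass. Among these it was 0.23 without ApoD overexpression replicate 3 (edgeR adjusted p = 0.2202), 0.27 without control replicate 2 (0.178) and 0.20 with library totals (0.231). The 3 known MTF1 targets whose promoters are shown were chosen because their RNA gave unlike results. Among them SLC30A1 was higher, MT1X lower and MT2A not called.

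The direction of the members went with their abundance, as it did across the table. All 4 called members with a mean under 10 CPM fell (SLC30A3, SLC30A4, SLC39A2 and MT1F), while SLC39A4, the other tested member at that level, did not pass. Of the 19 tested members with a mean of at least 10 CPM, 11 rose and 1, MT1X, fell. Among all tested genes under 10 CPM 32.4% were lower and 6.41% higher, and at 10 CPM or more 20.4% were lower and 33.7% higher. The part of abundance in the members' changes was not tested beyond the fit with the abundance trend removed.

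Lists of related genes gave further values. Of 13 other zinc handling genes tested, 5 rose and 1 fell, with a median log2 fold change of 0.18; the 46.2% called is near the 48.8% of all tested genes. CBWD1, a zinc chaperone with several near-identical copies, and MCOLN1, a lysosomal cation channel, rose by 0.58 ± 0.16 and 0.57 ± 0.13 (SE). The copies CBWD2, CBWD3, CBWD5 and CBWD6 changed by 0.06, 0.20, 0.16 and 0.11 and did not pass, with overlapping groups. Reads can be assigned to the wrong copy, so the value of CBWD1 alone is uncertain. TMC6, which is known to bind the exporter SLC30A1, fell by 0.64 ± 0.12, and CSNK2A1, a subunit of the casein kinase that opens SLC39A7, rose by 0.34 ± 0.08. Copper handling genes rose in 5 of 14 tested and fell in 2, with a median of 0.17, and their 50.0% called is also near the share of all tested genes. SLC31A2, a vesicular copper transporter, had 654, 592 and 595 counts with ApoD overexpression and 360, 295 and 329 counts in controls (log2 fold change 1.02 ± 0.13 SE; edgeR adjusted p = 7.77e-05). SCO2, which delivers copper to cytochrome oxidase, rose by 0.72 ± 0.15. The metal reductases STEAP4 and STEAP3 fell by 3.71 ± 0.81 and 0.89 ± 0.10, although STEAP4 had 4, 0 and 1 counts with ApoD overexpression and 28, 31 and 16 in controls.

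Heavy metals induce metallothioneins together with heat shock proteins, and glucocorticoids induce metallothioneins too. Heavy metal and heat stress genes rose in 7 of 17 tested and fell in 1, with a median log2 fold change of 0.12; the 47.1% called is near the 48.8% of all tested genes. The members of this list that rose most were chaperones: HSPA8 rose by 1.82 ± 0.15, HSPH1 by 1.37 ± 0.18, HSPA1A by 1.26 ± 0.10 and HSPA1B by 1.11 ± 0.10 (SE), where the last pair are near-identical genes. The 1 that fell was HSPB1, a small heat shock protein, at 410 ± 23.7 CPM with ApoD overexpression and 809 ± 59.9 CPM in controls (SD, n = 3). Its log2 fold change of −0.98 ± 0.09 (SE) passed (edgeR adjusted p = 8.28e-06). HMOX1, a heme oxygenase that heavy metals induce, had a log2 fold change of −0.40 and did not pass (edgeR adjusted p = 0.104). Of the 11 glucocorticoid-responsive genes tested 7 fell and the others did not pass, with a median of −0.35; 24.6% of all tested genes were lower. TSC22D3, a leucine zipper protein, had 450, 465 and 453 counts with ApoD overexpression and 1379, 1959 and 1724 counts in controls. ANGPTL4, a lipoprotein lipase inhibitor, had 61, 36 and 51 counts with ApoD overexpression and 59, 311 and 279 counts in controls, with control replicate 1 among the ApoD overexpression libraries. KLF9 and PER1, a transcription factor and a clock gene, fell by 1.70 ± 0.19 and 1.21 ± 0.11. In each of the 7 glucocorticoid-responsive genes that fell, as in MT1X and MT1F, control replicate 1 was the lowest control. Over all tested genes this library also lay nearest to the ApoD overexpression libraries among the controls. Its first principal component was −36.9, against −61.0 and −59.7. The order may therefore not be particular to these genes. Its share among all lower genes was not counted. What these genes share beyond that order was not tested.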

How the data were processed

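RNA was sequenced from 6 libraries of the 83 cell line, 3 per group, with a SMARTER mRNA-Seq kit per the labels' protocols. The authors deposited whole-number read counts per gene symbol, per the file headers, and FPKM values for the same libraries; all 108650 FPKM values above 0 equalled the deposited count over the library total and 1 gene length (relative tolerance 1e-06). Nothing in the sources used here names the aligner, the counter, its strand setting or the build. The counts were fitted in edgeR 4.0.16 under R 4.3.3 and tested by quasi-likelihood (robust; TMM scaling, filterByExpr with a minimum count of 10, 14629 genes, two-sided, Benjamini-Hochberg over all of them). CPM are counts in 1000000 after TMM scaling, and each SE was derived from the test statistic. A group total of 3 counts was the floor, and intervals from counts cover counting error only. The test was checked on simulated data. Values in full are given for every called member and every tested member at 10 CPM or more in either group, and for rarer ones as counts; each further list names up to 4 called genes by size of change, and genes outside these rules were chosen after their values were seen. Members and lists were chosen with earlier results of these data known. Alternatives were DESeq2 1.42.0, DESeq2 size factors, library totals, removal of each library's abundance trend, no filter, a replicate block, glmTreat against 1.5-fold, and leaving out each library. Others were limma 3.58.1 on log2(FPKM + 1) with and without a minimum of 1 FPKM in 3 libraries, and on log2(FPKM + 0.1) with that minimum. Coding sequences were aligned with Biopython 1.88.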

Additional observations from a re-analysis of the deposited data

How the results depend on the processing

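Over 394 refits of the 24 tested members and APOD, 322 kept their direction and their side of the threshold, 45 lost a call, 12 gained one and 15 changed sign, all 15 of members called neither before nor after. SLC39A13 had a log2 fold change of 0.0036 with DESeq2 size factors and with the DESeq2 Wald test, 0.022 without the filter, and −0.022 to 0.074 with any 1 library left out. Removing the abundance trend gave 0.22 for SLC39A4, and leaving out any 1 library −0.21 to 0.101. SLC39A9 had −0.11 with library totals and on log2(FPKM + 0.1), −0.15 with the abundance trend removed, −0.1045 on log2(FPKM + 1) with or without the filter, and −0.00019 to 0.037 with any 1 library left out. MT1F, SLC30A3 and SLC39A2 were called lower under every alternative that tested them, and SLC30A1, SLC39A3, SLC39A6, SLC39A7, SLC39A8 and SLC39A14 were called higher under every alternative but the test against a 1.5-fold change. That test called 551 genes higher and 1423 lower, and among the members 0 higher and 3 lower (exporters 0 and 1, importers higher 0, metallothioneins 0 and 1); at an unadjusted p under 0.05 that edgeR test held 2 members higher, both importers, and 5 lower. Members called higher numbered 7 with library totals, with the abundance trend removed and on either filtered FPKM scale, and 6 on unfiltered FPKM, which called 2286 genes higher; under each of these, 1 exporter and 0 metallothioneins were higher in edgeR or limma, against 2 to 3 exporters and 1 metallothionein at an unadjusted p under 0.05. Members called lower numbered 3 on filtered FPKM, which left out SLC30A3, SLC30A4 and SLC39A2 and so had 0 exporters and 0 importers lower in limma (0 of each also unadjusted); 1 exporter was lower with the abundance trend removed. On unfiltered log2(FPKM + 1), where the pseudocount exceeds their level, SLC30A3, SLC30A4 and SLC39A2 changed by −0.31, −0.23 and −0.45. Leaving out 1 library gave 2708 to 3743 genes higher and 2777 to 3818 lower, 9 to 11 members higher and 4 to 6 lower, 3 to 4 exporters higher, and 0 to 1 metallothioneins higher and 1 to 3 lower. The log2 ratio of the summed metallothionein level was −0.32, and −0.45 to −0.20 with 1 library left out. Same-numbered libraries did not deviate together (correlations of −0.12, −0.01 and −0.04), so the numbers gave no sign of pairing. With 3 libraries per group a weak pairing could not be seen. With the replicate block 6415 genes were called against 7132, and SLC30A7 lost its call (edgeR adjusted p = 0.1004). The causes of these differences were not tested except where the filter removed genes. Depth limits SLC39A2, SLC39A5 and MT1B, with at most 4 counts in the ApoD overexpression group.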
